A study of Bos taurus with 6 samples.

Results

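The genes of the proteasome were taken as the symbols that start with PSMA, PSMB, PSMC, PSMD, PSME, PSMF or PSMG and a digit. The counts held 49 such symbols among 23015 rows. Of these, 19 encode subunits of the core particle, 17 subunits of the regulatory cap, 7 assembly factors, and 5 activators or an inhibitor. PSMC3IP shares the prefix only. They were measured in longissimus thoracis muscle (LT) of 6 Hanwoo (Korean native cattle) steers on conventional feeding, 3 with a high number of fine marbling particles (NFMP) and 3 with a low NFMP, with 1 library from each animal. Steers of the high-NFMP group were 3-8, 10-8 and 10-9, aged 32.5, 33.8 and 34.5 months, and the low-NFMP steers were 3-1, 3-3 and 10-16, aged 37.8, 33.7 and 35.4 months. The values of single steers are given below in this order, high NFMP first. Both groups come from the same breed and sex class, and no treatment separates them.

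The proteasome degrades proteins that carry ubiquitin chains. Its core is a barrel of stacked rings, with PSMA subunits in the outer rings and PSMB subunits, some of which cut proteins, in the inner rings. The cap binds, unfolds and feeds in the substrate through a ring of PSMC ATPases and a set of PSMD subunits, and assembly factors help to build both and then leave. In skeletal muscle this system carries much of the turnover of soluble and myofibrillar protein and is well known from muscle wasting.

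Libraries held between 16283873 and 17192750 counts. Levels are given in CPM, the counts scaled to a common library size, with library sizes corrected by edgeR's trimmed mean of M-values (TMM). All 8 muscle fibre markers were abundant, each with a mean of at least 1583 CPM. The libraries were made with a 3′ mRNA kit that reads the end of a transcript, so CPM were not divided by transcript length, and levels of different genes are compared on that scale only. High and low NFMP were compared by edgeR's quasi-likelihood test over 15039 rows that passed its filter on low counts. In a bulk sample, fewer cells of a type and less RNA per cell cannot be told apart. The smallest p of an exact permutation test of 3 against 3 is 0.1, so the p-values given for single genes draw on a spread that edgeR shares between genes.

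Of the 49 genes, 47 passed the filter. Between the groups, 3 of the 47 (6.38%) had an unadjusted p below 0.05, against 11.5% of all rows tested. All 3 were lower in the high-NFMP group (5.74% of all rows were): the assembly factor PSMD5, the cap subunit PSMD14 and the core subunit PSMA1. PSMD5 passed the filter through its low-NFMP libraries alone. Of the 34 rows kept in this way, 70.6% were lower with such a p. No proteasome gene was higher with such a p (5.73% of all rows were). The number with such a p was 1 of 48 without steer 3-1 (2.08%, against 8.45% of all rows in that fit). It was 6 of 48 without steer 3-8 (12.5%, against 15.3%). A fold change above 2 with that p was reached by PSMD5 alone (2.13% of the 47, against 3.9% of all rows). No proteasome gene had an adjusted p below 0.05 by edgeR or DESeq2, whereas 0.685% of all rows did by edgeR. In 6 of the 47 genes the groups did not overlap (12.8%, against 17.1% of all rows), with PSMB9 and PSMC3IP higher and PSMA1, PSMB3, PSMD14 and PSMD5 lower in the high-NFMP steers.

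**Figure D1:**
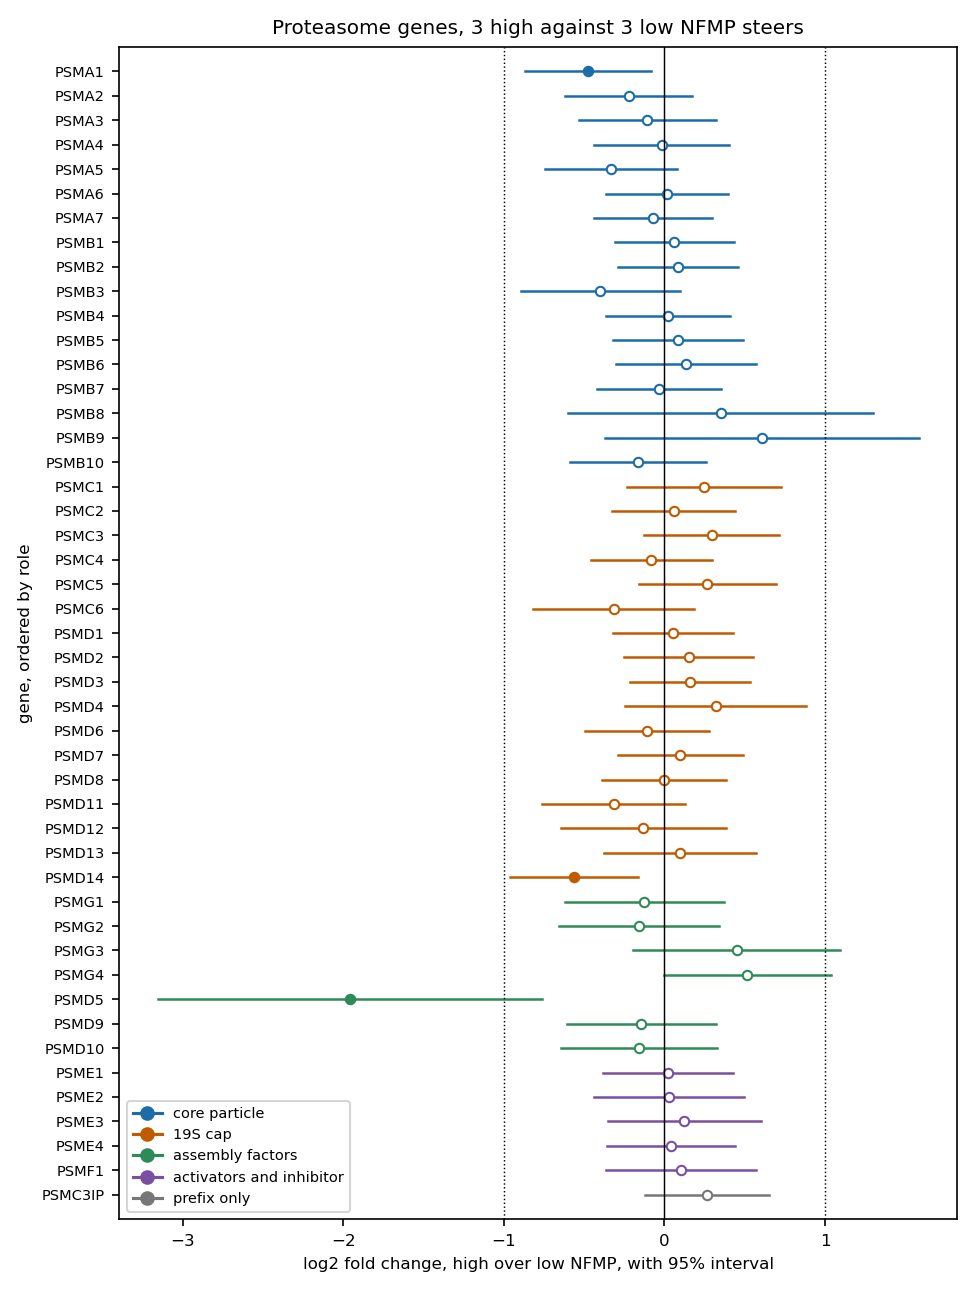
Log2 fold change of the 47 tested genes between 3 high-NFMP and 3 low-NFMP steers, with the 95% interval of the edgeR fit. Filled points have an unadjusted p below 0.05, and dotted lines mark a fold change of 2 in either direction. Apart from PSMD5 at -1.96, the points lie between -0.56 and 0.61.

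For 42 of the 47 genes the 95% interval of the log2 fold change lay within -1 and 1, so a change of 2-fold or more was outside it. The 5 others were PSMB8, PSMB9, PSMG3, PSMG4 and PSMD5. The median absolute log2 fold change of the 47 genes was 0.13, against 0.26 over all rows tested. Between single steers, the highest stood 1.49 times above the lowest in the median proteasome gene, against 1.94 times over all rows. This ratio was below 1.5 in 24 of the 47 genes (51.1%) and in 19.2% of all rows. Its largest value, 11.1, belonged to PSMD5. These shares were not matched for level: the median gene was at 42.3 CPM among the 47 and at 8.55 CPM over all rows, with median standard errors of 0.20 and 0.28 on the log2 scale.

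The classes differed far more in level than the groups of steers did. Core subunits that passed the filter had a median of 76.3 CPM (range 1.40 to 241), cap subunits a median of 88.1 CPM (22.6 to 229) and assembly factors a median of 13.0 CPM (0.98 to 18.6). The mean CPM of each of the 7 assembly factors lay below that of every one of the 17 cap subunits. Summed over a class, the core held between 1101 and 1260 CPM in a steer, the cap between 1575 and 1791 CPM and the assembly factors between 65.0 and 88.2 CPM. By group the sums were 1163 ± 80.6 and 1208 ± 46.0 CPM for the core (SD, n = 3 high and 3 low), 1648 ± 123 and 1619 ± 60.4 CPM for the cap, and 76.0 ± 11.6 and 74.1 ± 3.45 CPM for the assembly factors. These differences between the groups were smaller than the spread between steers of the high-NFMP group.

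**Figure D2:**
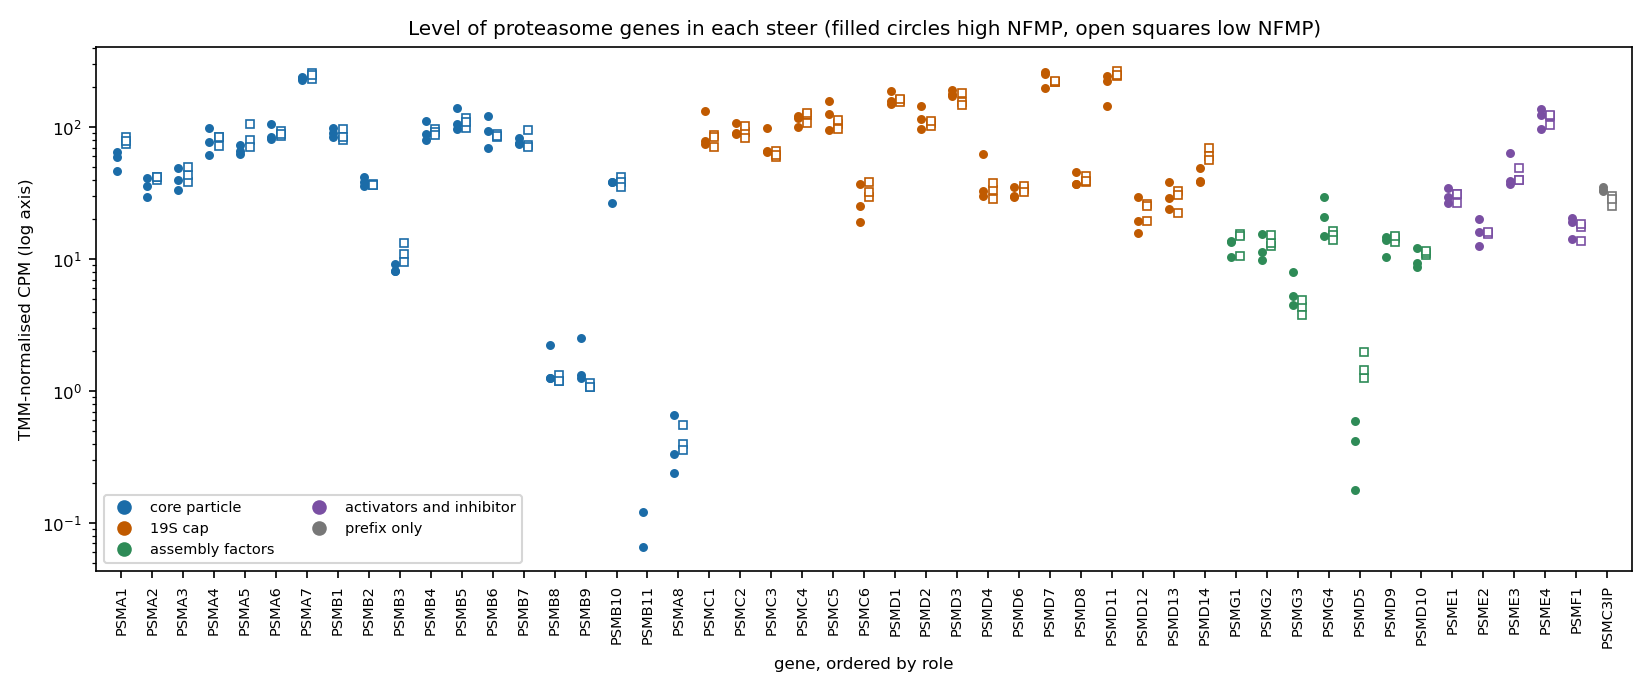
TMM-normalised CPM (log axis) of the 49 genes in each of the 6 steers, ordered by role and coloured by class. Filled circles are high-NFMP steers and open squares low-NFMP steers, and libraries with no count are not drawn. By their means, assembly factors (green) lie below the cap (orange), although single steers overlap, as with PSMG4 in steer 10-9 at 29.8 CPM and PSMD12 in the same steer at 19.3 CPM, and PSMB8, PSMB9, PSMD5, PSMA8 and PSMB11 lie near or below 2 CPM.

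In the fit, the median log2 fold change (high over low NFMP) was -0.02 for the 17 core subunits tested, 0.06 for the 17 cap subunits and -0.14 for the 7 assembly factors, against 0.02 over all rows. Positive values were found for 8 of 17 core subunits, 10 of 17 cap subunits and 2 of 7 assembly factors. Each of these 3 classes held 1 gene past the p threshold. This was 5.88% of the core, 5.88% of the cap and 14.3% of the assembly factors, against 11.5% of all rows. The assembly factors counted are PSM symbols only, so POMP (log2 fold change 0.05, standard error 0.17) and PAAF1 (0.30, standard error 0.28) are outside the class.

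The outer-ring subunits PSMA1 to PSMA7 had means between 38.4 CPM (PSMA2) and 241 CPM (PSMA7, the most abundant of the 49 genes). Log2 fold changes were below 0 for 6 of these 7 genes, with only PSMA6 at 0.02, with a median of -0.10. PSMA6 was at 82.1, 84.7 and 107 CPM against 86.4, 94.2 and 89.6 CPM, with overlapping groups. PSMA1 was at 64.8, 59.0 and 46.5 CPM in the high-NFMP steers and at 83.9, 74.4 and 78.3 CPM in the low-NFMP steers. The groups did not overlap, and steer 10-9 was lowest. PSMA1 fell by 0.47 on the log2 scale (standard error 0.18, unadjusted p = 0.0216, adjusted p = 0.338 by edgeR). Its unadjusted p passed 0.05 in 10 of 14 alternative fits, and without steer 10-9 the log2 fold change was -0.33 (unadjusted p = 0.0859 by edgeR). PSMA7 was among the steadiest, at 236, 242 and 227 CPM against 259, 231 and 250 CPM.

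The inner-ring subunits PSMB1 to PSMB7 had means between 9.83 CPM (PSMB3) and 112 CPM (PSMB5). PSMB3, a subunit without a catalytic site, was thus counted far below the subunits it is built in with. It was at 8.20, 9.13 and 8.12 CPM against 10.9, 13.2 and 9.44 CPM. The groups did not overlap, but the log2 fold change of -0.40 (standard error 0.23) had an unadjusted p of 0.107 by edgeR. In the RefSeq gene table (assembly ARS-UCD2.0) PSMB3 overlaps PCGF2, and PCGF2 was at a like level of 7.42 to 11.3 CPM over the 6 steers. Log2 fold changes of the 7 genes lay between -0.40 and 0.13, the highest being that of PSMB6.

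Of the catalytic subunits, PSMB5 (chymotrypsin-like activity) was at 97.5, 106 and 141 CPM against 98.9, 117 and 110 CPM. PSMB6 (caspase-like) was at 69.6, 93.8 and 121 CPM against 84.5, 88.4 and 86.1 CPM. PSMB7 (trypsin-like) was at 74.3, 82.7 and 76.4 CPM against 94.5, 73.2 and 70.7 CPM. In all 3 the groups overlapped, and the low-NFMP steers lay inside the range of the high-NFMP steers for PSMB5 and PSMB6.

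Each of these subunits has an interferon-inducible counterpart that takes its place in the immunoproteasome, PSMB8 for PSMB5, PSMB9 for PSMB6 and PSMB10 for PSMB7. The 3 counterparts were not expressed alike. PSMB10 was at 38.2, 26.7 and 38.4 CPM against 42.0, 38.6 and 35.2 CPM, between 32.2% and 52.7% of PSMB7. PSMB8 was counted 37, 19 and 21 times against 21, 24 and 20 times, between 0.89% and 2.29% of PSMB5 in CPM. PSMB9 was counted 22, 38 and 21 times against 19, 21 and 18 times, between 1.04% and 2.68% of PSMB6 in CPM. PSMB8 thus stood out in steer 3-8 and PSMB9 in steer 10-8, and the other 5 libraries of each gene were close together.

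As a set, the inducible subunits summed to 37.7 ± 6.30 CPM in the high-NFMP group and 40.9 ± 3.41 CPM in the low-NFMP group (SD, n = 3 each), nearly all of it PSMB10. The log2 fold changes were 0.35 (standard error 0.44) for PSMB8, 0.61 (standard error 0.46) for PSMB9 and -0.16 (standard error 0.20) for PSMB10. Their unadjusted p by edgeR were 0.444, 0.203 and 0.418. The log2 fold change of PSMB8 was 0.01 without steer 3-8, and that of PSMB9, whose groups did not overlap, was 0.25 without steer 10-8. At these low counts the 95% intervals were wide, -0.60 to 1.30 for PSMB8 and -0.37 to 1.59 for PSMB9. Leukocytes express these subunits strongly. The summed level of 8 leukocyte markers was 60.1, 84.0 and 59.0 CPM against 41.5, 66.2 and 43.4 CPM, highest in steer 10-8. Of the 7 tested, 1 (14.3%) had an unadjusted p below 0.05, against 11.5% of all rows. This was CD74, which was higher (unadjusted p = 0.0353 by edgeR). CD14 and CSF1R were higher without overlap, at log2 fold changes of 0.57 and 0.73 (unadjusted p = 0.0712 and 0.0541 by edgeR). CD74, which antigen-presenting cells express strongly, held 58.3 of the 84.0 CPM in steer 10-8. Without it the other 7 markers summed to 38.7, 25.7 and 27.6 CPM against 26.8, 39.7 and 22.7 CPM, with steer 10-8 the second lowest and the groups overlapping. Log2 fold changes were above 0 for 4 of the 7 tested markers and below 0 for 3, the lowest being CD163 at -0.56 (standard error 0.48). None of the 8 was at 0 in a library, the lowest being CD3E with 1 count in steer 3-1. The part of leukocytes in the PSMB9 values was not tested.

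Antigen presentation by MHC class I uses the peptides that the immunoproteasome makes. Of 7 of its genes, 1 (14.3%) had an unadjusted p below 0.05, against 11.5% of all rows, and it was lower. This was NLRC5, an activator of MHC class I genes, at 3.86, 4.37 and 2.93 CPM against 13.8, 4.74 and 4.51 CPM. Its log2 fold change was -1.05 (standard error 0.41, unadjusted p = 0.0253, adjusted p = 0.354 by edgeR) and -0.32 without steer 3-1, which alone was high. TAP1, a peptide transporter subunit, was at 1.57, 5.23 and 2.69 CPM against 2.56, 2.42 and 3.85 CPM, with its highest value in steer 10-8.

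PSMA8, known from testis, was counted between 4 and 11 times and PSMB11, known from thymus, between 0 and 2 times per library. Neither passed the filter. PSMB11 overlaps PSMB5 in the RefSeq table.

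The ATPases PSMC1 to PSMC6 had means between 30.3 CPM (PSMC6) and 117 CPM (PSMC4), and none of the 6 had an unadjusted p below 0.05. PSMC3 had the highest log2 fold change, 0.29 (standard error 0.20), from 65.9, 64.7 and 97.8 CPM against 65.6, 59.7 and 61.2 CPM. Only steer 10-9 stood apart, and without it the log2 fold change of PSMC3 was 0.09. PSMC6 had the lowest, -0.32 (standard error 0.24), from 611, 379 and 318 counts against 679, 538 and 539 counts, and here steer 10-9 was the lowest of the 6. The log2 fold change of PSMC6 was -0.10 without steer 10-9 (unadjusted p = 0.641 by edgeR) and -0.61 without steer 3-8 (unadjusted p = 0.015, adjusted p = 0.234 by edgeR). PSMC4 was counted 1661 times in steer 3-8 and 2165 times in steer 3-1, and the noncoding gene LOC104974868, which overlaps it in the RefSeq table, was counted 1669 and 2161 times. The 2 counts differed by no more than 8 in any of the 6 steers, and how far they share reads was not tested.

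The 11 other cap subunits had means between 22.6 CPM (PSMD12) and 229 CPM (PSMD7). PSMD14 is the enzyme of the lid that takes ubiquitin chains off a substrate as it enters. It was at 49.0, 38.8 and 38.4 CPM in the high-NFMP steers and at 69.8, 60.5 and 56.0 CPM in the low-NFMP steers. Every high-NFMP steer lay below every low-NFMP steer, at group means of 42.1 ± 5.97 and 62.1 ± 7.05 CPM (SD, n = 3 each). PSMD14 fell by 0.56 on the log2 scale (standard error 0.19, 95% interval -0.96 to -0.16), with an unadjusted p of 0.00889 and an adjusted p of 0.249 by edgeR. The unadjusted p stayed below 0.05 in 12 of 14 alternative fits, and rose to 0.0505 without steer 3-1 (log2 fold change -0.47) and to 0.0518 with age as a term (-0.54, both by edgeR). No other gene overlaps PSMD14 in the RefSeq table.

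PSMD7, which pairs with PSMD14 in the lid, did not follow it. It was at 262, 198 and 251 CPM against 220, 219 and 224 CPM, a log2 fold change of 0.10 (standard error 0.18). The lid subunit PSMD11 was at 223, 245 and 144 CPM against 268, 244 and 250 CPM, the low value being that of steer 10-9. Its log2 fold change of -0.31 (standard error 0.21) had an unadjusted p of 0.153 by edgeR. PSMD4, a ubiquitin receptor, had the highest log2 fold change of the 11, 0.32 (standard error 0.26). It was at 29.9, 32.6 and 62.6 CPM against 33.7, 38.0 and 28.5 CPM, and without steer 10-9 the log2 fold change was -0.08.

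The assembly factors of the core work as the pairs PSMG1 with PSMG2 and PSMG3 with PSMG4. Their means lay between 5.12 CPM (PSMG3) and 18.6 CPM (PSMG4), and none of the 4 had an unadjusted p below 0.05. PSMG4 came closest, at 14.9, 20.8 and 29.8 CPM against 16.3, 15.4 and 14.1 CPM, a log2 fold change of 0.52 (standard error 0.24, unadjusted p = 0.0511, adjusted p = 0.439 by edgeR). The groups overlapped, since steer 3-8 lay among the low-NFMP steers. The log2 fold change of PSMG4 was 0.24 without steer 10-9 (unadjusted p = 0.305 by edgeR) and 0.73 without steer 3-8 (unadjusted p = 0.00612, adjusted p = 0.182 by edgeR). PSMG2 was at 11.4, 15.6 and 9.79 CPM against 12.6, 13.2 and 15.2 CPM and had the lowest log2 fold change of the 4, -0.16 (standard error 0.23). The log2 fold change was -0.12 for PSMG1 and 0.45 for PSMG3.

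Among the chaperones of the cap base, PSMD5, PSMD9 and PSMD10 carry PSM symbols. Each of these binds its own ATPase and is absent from the finished particle. PSMD5, which binds PSMC2, was the rarest of the 47 tested genes. Its counts were 7, 9 and 3 in the high-NFMP group and 22, 36 and 24 in the low-NFMP group, which makes 19 against 82 counts in all. On the CPM scale this was 0.42, 0.60 and 0.18 against 1.25, 1.98 and 1.44, or 0.40 ± 0.21 against 1.56 ± 0.38 (SD, n = 3 each). The groups lay well apart. The log2 fold change was -1.96 (standard error 0.56, 95% interval -3.16 to -0.76), with an unadjusted p of 0.00331 and an adjusted p of 0.165 by edgeR.

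PSMD5 was singled out by the study from these same libraries, so this difference is not independent of its choice. It also entered the test through its low-NFMP libraries alone, because all 3 high-NFMP libraries lay below the 0.595 CPM that the filter asks for (CPM by library total). Only 34 of the 15039 rows were kept in this way, and 70.6% of them were lower with an unadjusted p below 0.05. With at least 10 counts asked of every library, PSMD5 was not tested. In the 13 alternative fits that tested it, the log2 fold change lay between -2.33 and -1.59, the unadjusted p below 0.05 and the adjusted p between 0.0959 and 0.431. No gene of the RefSeq table overlaps PSMD5.

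PSMD9 and PSMD10, the other base chaperones with a PSM symbol, were at higher and steadier levels than PSMD5. PSMD9 was at 13.9, 10.5 and 14.7 CPM against 14.5, 13.6 and 15.1 CPM, a log2 fold change of -0.14 (standard error 0.22). PSMD10 was at 8.69, 9.33 and 12.1 CPM against 10.8, 11.2 and 11.6 CPM, a log2 fold change of -0.16 (standard error 0.23). The intervals of both exclude a 2-fold change. PSMC2, the ATPase that PSMD5 binds, was at 89.8, 89.2 and 108 CPM against 91.2, 82.2 and 102 CPM, so PSMD5 was between 0.17% and 0.67% of PSMC2 in the high-NFMP steers and between 1.37% and 2.41% in the low-NFMP steers.

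**Figure D3:**
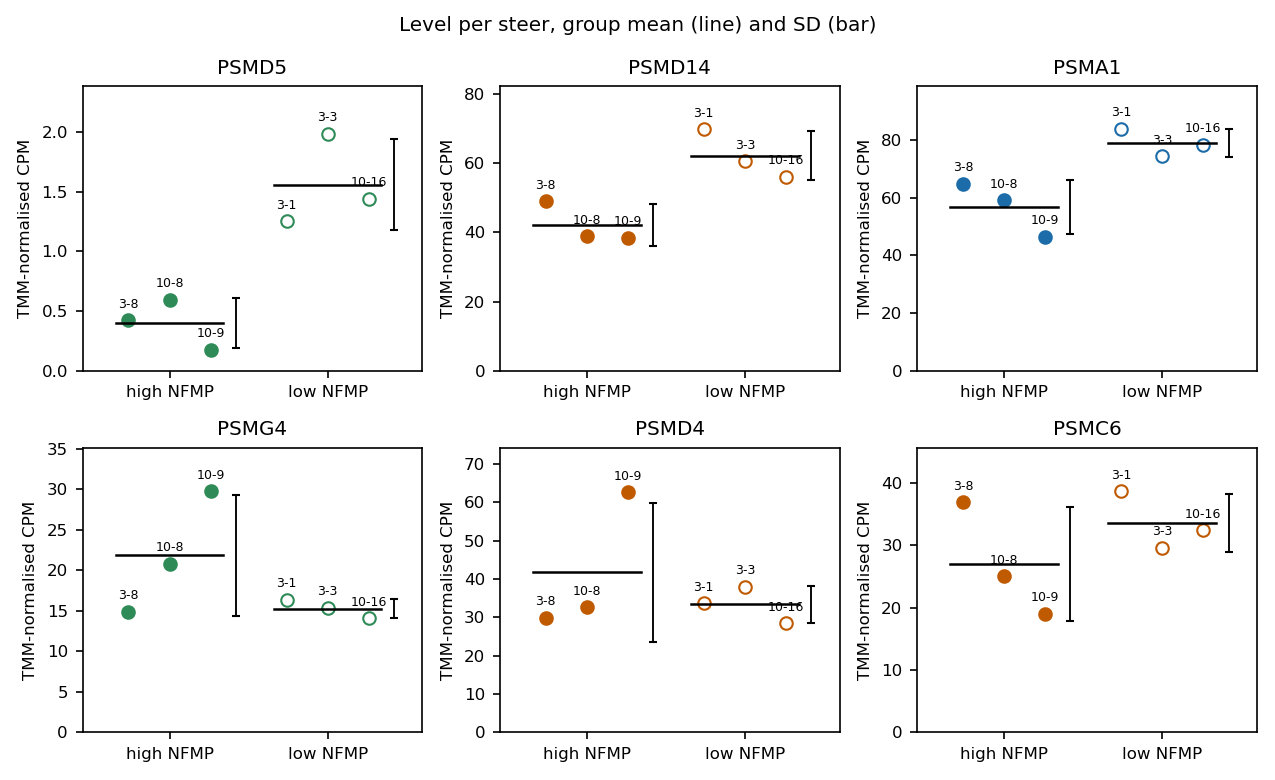
TMM-normalised CPM of 6 proteasome genes in each steer, with the group mean (line) and SD (bar, n = 3). PSMD5, PSMD14 and PSMA1 separate the groups, whereas the spread of PSMG4, PSMD4 and PSMC6 within the high-NFMP group is set by steers 3-8 and 10-9 at its ends.

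Adipocyte markers were highest in steer 3-8 by their sum. The summed level of 7 adipocyte markers was 711, 404 and 302 CPM in the high-NFMP steers and 307, 353 and 281 CPM in the low-NFMP steers, so the groups overlapped. With an unadjusted p below 0.05, 4 of the 7 (ADIPOQ, PLIN4, CIDEC and LIPE) were higher, against 5.73% of all rows. The lowest adjusted p of the list was 0.214, for CIDEC (edgeR). No adipocyte marker was at 0 in a library. No muscle fibre marker (of 8) and no endothelial marker (of 5) had an unadjusted p below 0.05, against 11.5% of all rows. With such a p, 1 of 5 fibroblast markers (20%), PDGFRA, was lower, against 5.74% of all rows. The other 4 fibroblast markers had log2 fold changes between 0.16 and 0.59, none with such a p, and all 5 summed to 730, 876 and 704 CPM against 544, 684 and 716 CPM, with overlapping groups. The part of adipocyte content in the lower PSMA1, PSMD14 and PSMD5 was not tested. Without steer 3-8, the log2 fold changes of these genes were -0.58, -0.69 and -2.01. That fit cannot decide the part of adipocyte content. In 3 of the 7 adipocyte markers (ADIPOQ, CIDEC and LIPE), steers 10-8 and 10-9 also lay above every low-NFMP steer. In the other adipocyte markers the groups overlapped.

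Of the activators, PSME1 and PSME2, which form the interferon-inducible ring that opens the core, had means of 30.0 and 16.1 CPM and log2 fold changes of 0.02 and 0.03 (standard errors 0.19 and 0.22). PSME1 was at 26.4, 34.8 and 29.4 CPM against 31.4, 31.0 and 26.7 CPM, and it overlaps EMC9 in the RefSeq table, which was at 20.2 to 31.4 CPM. PSME3, the nuclear activator, was at 37.2, 39.2 and 64.1 CPM against 49.4, 39.9 and 39.5 CPM, a log2 fold change of 0.12 (standard error 0.22). PSME4, the most abundant activator gene here, had a mean of 118 CPM and a log2 fold change of 0.04, and PSMF1, which encodes an inhibitor of the core, 17.3 CPM and 0.10. None of these 5 genes had an unadjusted p below 0.05, and all 5 intervals lay within a 2-fold change.

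The highest and lowest levels were spread unevenly over the steers. Steer 10-9 had the highest level of the 6 in 21 of the 47 tested genes (44.7%), against 20.4% of all rows, and in 10 of the 17 cap subunits. It had the lowest level in 9 genes (19.1%, against 20.7% of all rows), among them PSMA1, PSMB3, PSMC6, PSMD5, PSMD11 and PSMD14. Steer 3-8 was lowest in 16 of the 47 (34.0%, against 14.9% of all rows) and highest in 4. Both are high-NFMP steers, so opposite deviations met within one group. Steer 3-1, the oldest, was lowest in 1 gene. Without steer 10-9, the median log2 fold change of the cap subunits was -0.06.

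**Figure D4:**
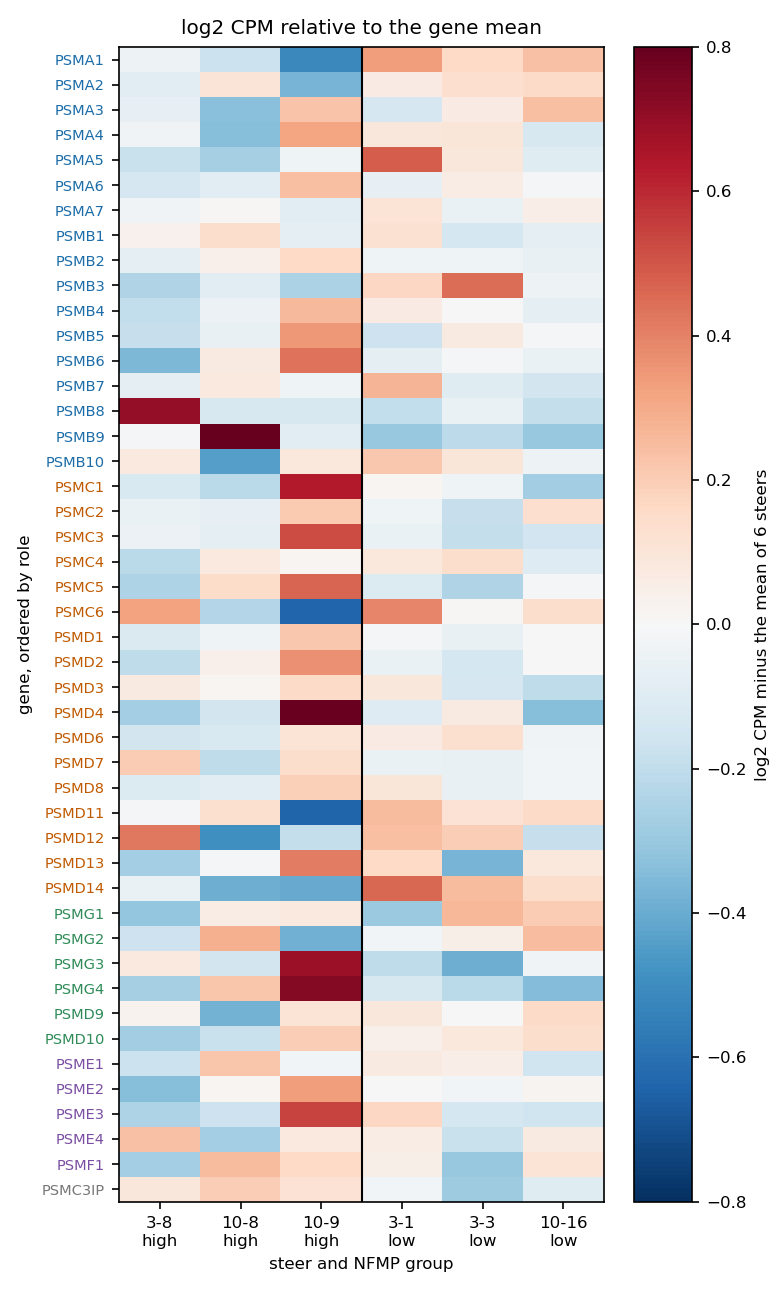
Log2 CPM of 46 proteasome genes (PSMD5 left out for its wide range) in each steer, minus the mean of the gene over the 6 steers, with the colour scale ending at -0.8 and 0.8. Gene names are coloured by class as in the plot of levels. The column of steer 10-9 holds strong values in both directions, with PSMD4, PSMG4, PSMG3 and PSMC1 high and PSMC6 and PSMD11 low.

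Of 24 proteasome partners outside the PSM symbols (DDI2 was not analysed here), none had an unadjusted p below 0.05, and the median log2 fold change was -0.01. NFE2L1, the transcription factor that drives proteasome genes when the proteasome is impaired, was at 884, 751 and 865 CPM against 884, 710 and 1038 CPM, a log2 fold change of -0.07 (standard error 0.20). POMP, the core maturation factor, was at 126, 119 and 142 CPM against 132, 119 and 123 CPM. This put its level well above that of the PSMG factors and of PSMD5, PSMD9 and PSMD10. The cap subunits SEM1 and ADRM1 had log2 fold changes of -0.24 (standard error 0.18) and 0.14 (standard error 0.18). UBQLN4 had the largest difference of the list, -0.98 (standard error 0.57, unadjusted p = 0.108 by edgeR), at means near or below 1 CPM.

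PSMC3IP, a cofactor of meiotic recombination, is not a proteasome gene. It was counted 540, 531 and 557 times against 530, 456 and 476 times, a log2 fold change of 0.27 (standard error 0.18). Its neighbour MLX, which overlaps it in the RefSeq table, was counted 544, 535 and 560 times against 531, 460 and 491 times. The counts of the pair differed by no more than 15 in any steer. In all, 13 of the 49 genes overlap another listed gene in the RefSeq table, and without knowledge of strand, reads from the overlapping stretch cannot be assigned to either gene. Near-equal counts were seen for PSMC4 and PSMC3IP, whereas PSMD1, for example, was counted 2485 times in steer 3-8 and its neighbour HTR2B 33 times.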

How the data were processed

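Libraries of 6 LT samples were made by the authors with a 3′ mRNA kit of Lexogen (SENSE 3′ in the paper, Quant-Seq in the labels). The authors deposited raw read counts per gene symbol. The paper names Tophat2 with HTSeq in one place and Bowtie2, with unique and multiple alignments, in another. The labels name Bowtie2 and bedtools. The sources used here do not give which of them made the deposited counts, or whether strand was used, so overlapping or near-identical genes may share reads. Totals lay between 16283873 and 17192750 counts. These intervals and p-values cover the spread between 6 steers, and a gene with 10 counts carries a large counting error.

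The quasi-likelihood test of edgeR 4.0.16 in R 4.3.3 was used (filter with minimum count 10 and minimum total 15, TMM, robust dispersions, Benjamini-Hochberg adjustment over 15039 rows). A row had to reach 0.595 CPM in 3 libraries. Intervals used the standard error from the log2 fold change and F statistic. Calls were an unadjusted p below 0.05, alone or with a fold change above 2. As alternatives, all rows or those with at least 10 counts in each library were tested, and use was made of RLE factors, library totals, DESeq2 1.42.0, quantile normalization with limma 3.58.1, fits without each steer, and a term for age or for the number that opens the label of a steer (3 or 10). The test was checked on simulated counts.

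The members and lists were chosen with earlier results of these data known. Named with steer values were PSMD5, genes with an unadjusted p below 0.05, the highest and lowest log2 fold change of each class, the catalytic subunits and the 3 most abundant genes. PSMC2, PSMC4, PSMD10, PSMC3IP, PSMB11, PSMA8 and the other genes given with values were added after their values were seen. All 49 symbols were found in the RefSeq gene table (assembly ARS-UCD2.0), used for names and overlaps only. The paper mapped its reads to a different cattle assembly. An overlap, or the lack of one, in this gene table may therefore not hold for the deposited counts. The carcass measurements and qPCR were not analysed here.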

Additional observations from a re-analysis of the deposited data

How the results depend on the processing

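The number of rows past the p and fold change threshold was 586, and 969 without a filter and 364 with at least 10 counts in every library, where fewer rows were tested. It lay between 630 and 744 with a steer left out. Of the proteasome genes, 3 had an unadjusted p below 0.05 by edgeR, and between 1 (without steer 3-1, 2.08% of those tested against 8.45% of all rows) and 6 (without steer 3-8, 12.5% against 15.3%) with a steer left out. The 6 were PSMD5, PSMD14, PSMA1 and PSMC6 lower and PSMC5 and PSMG4 higher. No proteasome gene had an adjusted p below 0.05 in any of the 14 alternatives. Of these, 13 tested PSMD5, and its unadjusted p was below 0.05 in all 13. Its log2 fold change lay between -2.33 and -1.59 with a steer left out. These fits reuse the same counts, in which PSMD5 passed the main filter through its low-NFMP libraries alone. With at least 10 counts asked of every library it was not tested. The p of PSMD14 (log2 fold change -0.56) rose above 0.05 without steer 3-1 (-0.47) and with age as a term (-0.54), and that of PSMA1 (-0.47) without steer 10-9 (-0.33), 3-1 (-0.43) or 10-16 (-0.45) and with age as a term (-0.49). That of PSMG4 (0.52) fell below 0.05 without a filter, with at least 10 counts in every library, without steer 3-8 (0.73) and with age as a term (0.72), whereas its log2 fold change was 0.24 without steer 10-9 and 0.38 with the number that opens the label as a term. Median log2 fold changes moved by at most 0.08 for the core, 0.11 for the cap and 0.10 for the assembly factors over the 14 alternatives, less than the SD between steers of a group in the median log2 level of the class (0.12, 0.23 and 0.16). The sign was the opposite in 5 alternatives for the core, 3 for the cap and 0 for the assembly factors. With a steer left out they lay between -0.09 and 0.07 for the core, -0.06 and 0.14 for the cap and -0.19 and -0.04 for the assembly factors. Of 266 fits of named genes not past the p threshold, 16 had the opposite sign, none of them past it. No paired analysis was possible because each steer is a different animal and the replicate numbers only name the samples. The number that opens a label (3 or 10) occurs in both groups, and with it as a term 3 proteasome genes had an unadjusted p below 0.05 by edgeR. Depth limits PSMD5, PSMB8 and PSMB9, whose counts lay between 3 and 38 in a library.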
